A study of Homo sapiens with 12 samples.

Results

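The mRNAs of the mitochondrial ribosomal proteins were followed over the ribosome gradient of wild type (WT) and CBFB_KO MCF10A cells. Members were the genes whose symbol is MRPL or MRPS followed by a number and at most 1 letter from A to C, which gave 76 of the 56632 genes in the files. Of these, 48 are named for the large and 28 for the small subunit. The symbol table held 78 such symbols, and MRPL45 and MRPS21 were not analysed here. All 76 members passed the filter on low counts, which left 16275 genes.

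MCF10A is a non-tumorigenic human mammary epithelial line. CBFB encodes core binding factor beta, the partner of the RUNX transcription factors. The CBFB_KO cells were made with CRISPR-Cas9 and grown from single-cell colonies, so the genotype is tied to clonal selection. All cells were of fewer than 20 passages and were treated with cycloheximide, which holds ribosomes on the mRNA. Lysates were run on 10-50% sucrose gradients, and the free, monoribosome (mono) and pooled polyribosome (poly) fractions were sequenced in 2 replicates per genotype, giving 12 libraries in 6 conditions. The comparisons address where CBFB loss changes the ribosome loading of mRNAs. No label says that replicates came from separate cultures, so p-values measure the spread between these libraries only.

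Mitochondrial ribosomes translate the few proteins encoded in mitochondrial DNA, which are subunits of the respiratory chain. All of their proteins are encoded in the nucleus, translated on cytosolic ribosomes and imported. Some descend from bacterial ribosomal proteins and others have no bacterial counterpart.

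The bases before the transcription start of 4 of them are shown, since many members moved in one direction in the free fraction, with the ETS-type motif CCGGAAG in capitals where it is present. The windows come from RefSeq on GRCh38.p14, hold 80 bases 5′ to 3′, and overlap no exon of GENCODE release 29. MRPS18A and MRPL37 were lower in the CBFB_KO free fraction, MRPL19 was higher, and MRPL11 had a changed poly to free ratio.
MRPS18A (chr6:43687792-43687871, minus strand): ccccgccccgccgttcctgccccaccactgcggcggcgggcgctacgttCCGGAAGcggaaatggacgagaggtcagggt
MRPL37 (chr1:54200087-54200166, plus strand): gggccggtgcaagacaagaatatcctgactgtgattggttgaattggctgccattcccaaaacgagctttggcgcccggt
MRPL11 (chr11:66438849-66438928, minus strand): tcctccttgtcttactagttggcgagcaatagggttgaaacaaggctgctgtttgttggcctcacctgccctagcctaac
MRPL19 (chr2:75646703-75646782, plus strand): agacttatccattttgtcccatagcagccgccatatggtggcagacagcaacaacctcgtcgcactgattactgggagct
Only the MRPS18A window among these 4 held the motif. Over windows of 300 bases, from 250 before to 50 after the start and on both strands, CCGGAAG was in 38.6% of 83 member promoters (67 members had an entry) and in 10.3% of all 35116 promoters. The same motif was in 33.3% of 78 cytosolic ribosomal protein promoters and 28.4% of 74 promoters of nuclear OXPHOS subunits. The YY1 motif AAGATGGC was in 26.5% of member promoters and 2.89% of all, with 8.97% for cytosolic ribosomal proteins and 17.6% for OXPHOS subunits. The NRF1 motif GCATGCGC was in 7.23% and 3.05%, with 3.85% and 20.3% in those lists. TATAAA was in 3.61% against 11.5%. A start of C and 4 pyrimidines, the mark of cytosolic ribosomal protein mRNAs, was found in 6.02% of member promoters and 4.07% of all. It was in 60.3% of 78 cytosolic ribosomal protein promoters and 10.8% of those of OXPHOS subunits. Promoters of members that were lower in the CBFB_KO free fraction held CCGGAAG in 38.8% of 49 entries and those of the other members in 38.2% of 34. These are matches of letters and not measured binding sites.

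The expected counts summed to 41050325 to 63886726 per library. The free libraries of CBFB_KO stood apart: 71.56% and 87.22% of their counts fell on genes of the mitochondrial genome, against 1.26% to 20.81% in the other 10 libraries. Member counts were 46048 and 12462 there and 277421 to 593833 elsewhere, so the values from these 2 libraries are the least precise. The 2 CBFB_KO poly libraries were nearly alike, with a mean chi-square per gene of 2.18 against 117 to 934 in the other pairs of replicates. They were kept as 2 samples. A fit with them counted as 1 was also run, and only some of the results that differ in it are given. CBFB mRNA was at 5.37 and 12.6 CPM (counts scaled to the library size with TMM factors) in WT free and 11.3 and 14.1 in CBFB_KO free, 8.03 and 6.2 in WT mono and 4.79 and 3.89 in CBFB_KO mono, and 5.72 and 6.84 in WT poly and 3.59 and 4.01 in CBFB_KO poly. The genotypes overlapped in the free fraction only, and the log2 changes of 0.49, -0.71 and -0.72 did not pass edgeR's test. A CRISPR-made small deletion need not lower the mRNA, so these values do not check the labels. Of the epithelial markers, KRT5, KRT17 and KRT6A had a median of 485, 577 and 121 TPM, RSEM's level per transcript length, and KRT14, CDH1, TP63, EGFR and EPCAM one of 7.99, 5.49, 2.02, 2.0 and 1.46. KRT14 was at 18.7 and 19.7 CPM in WT poly and 138 and 138 in CBFB_KO poly. In the free fraction, EGFR was at 10.7 and 7.83 CPM in WT and 284 and 365 in CBFB_KO, and TP63 at 3.67 and 4.54 against 112 and 237. CDH1 and EPCAM were also higher in CBFB_KO free, KRT17 and KRT6A were lower, and KRT5 and KRT14 overlapped. The part of these differences in the results was not tested. Of the markers of other cells and of luminal hormone receptors, PTPRC, PGR and COL1A2 were at 0 in every library, and CD3E, VWF, ESR1 and COL1A1 reached at most 0.04, 0.03, 0.59 and 2.01 TPM.

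Per length, the levels in WT poly ran from a mean TPM of 2.75 ± 0.643 (SD, n = 2) for MRPL50 to 391 ± 18.1 for MRPL12, a subunit of the stalk that recruits translation factors. After MRPL12 came MRPS34 at 362 ± 26.5, MRPS24 at 350 ± 45.7, MRPL52 at 341 ± 23.9 and MRPL24 at 330 ± 31.6. Among these 4, neighbours in the order differed by less than the larger of their SDs. The lowest after MRPL50 were MRPL1 at 2.86 ± 2.4, MRPS31 at 5.08 ± 1.77, MRPL30 at 6.36 ± 2.59 and MRPS9 at 9.09 ± 3.97. The members summed to 10326 and 9769 TPM in WT poly, 9740 and 9860 in CBFB_KO poly, 5850 and 4092 in WT free, and 603 and 157 in CBFB_KO free. TPM is a share of the whole library, and the mitochondrial transcripts fill most of the CBFB_KO free libraries. Of the counts outside the mitochondrial genome, the members made up 0.715% and 0.559% in WT free, 0.339% and 0.237% in CBFB_KO free, and 0.865% to 1.027% in the mono and poly libraries.

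**Figure D1:**
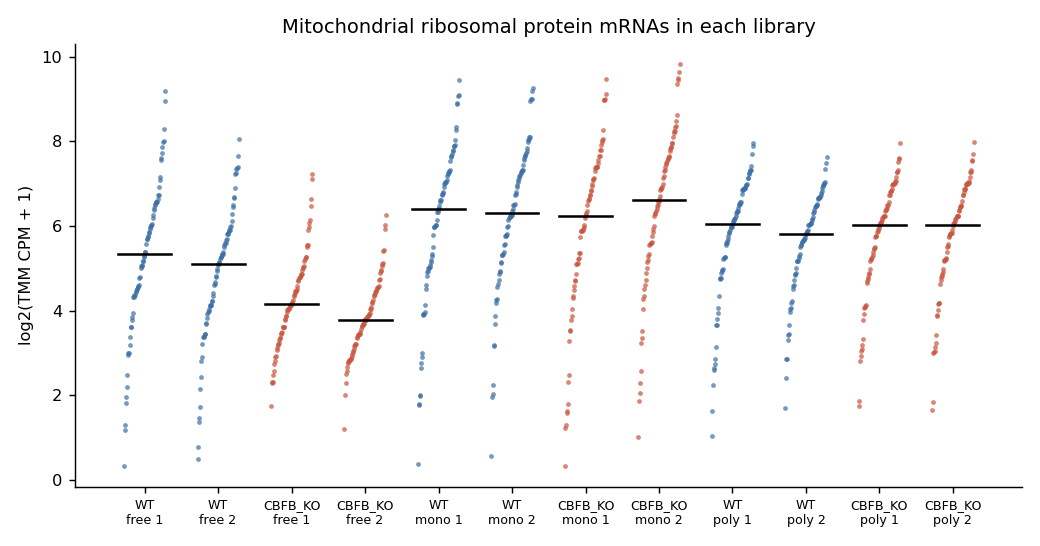
Each point is 1 of the 76 members, sorted within a library, as log2 of CPM with TMM scaling plus 1, and the bar is the median of the members. The median in CPM was 39.5 and 33.0 in WT free and 16.8 and 12.8 in CBFB_KO free, and 55.5 to 96.5 in the mono and poly libraries.

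In the free fraction, member mRNAs were lower in CBFB_KO than in WT. Of 76 members, 43 fell and 3 rose (edgeR's quasi-likelihood test, Benjamini-Hochberg adjusted p under 0.05), where 18.1% of all genes tested fell and 24.2% rose. The median log2 change was -1.31 for the members and 0.04 over all genes, and 61 of the members had a negative change. By name, 29 of 48 MRPL genes and 14 of 28 MRPS genes were lower. Members with a bacterial counterpart had 27 of 46 lower and 3 higher, and those without had 16 of 29 lower and 0 higher.

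MRPL12, of the stalk, was at 499 and 201 CPM in WT free and at 98.8 and 17.4 in CBFB_KO free. The groups did not overlap, with CBFB_KO below WT as for 71.1% of members and 31.5% of all genes tested. MRPL12 fell by 2.59 on the log2 scale (SE 0.70, adjusted p = 0.0146 by edgeR's quasi-likelihood test). MRPL10, the protein that anchors the stalk, was at 89.6 and 50.5 CPM against 30.9 and 9.3, and fell by 1.79 (SE 0.53). MRPS12, a protein of the decoding centre of the small subunit, was at 234 and 162 CPM in WT and 46.0 and 22.0 in CBFB_KO. It fell by 2.54 (SE 0.44, adjusted p = 0.00177 by edgeR), and no CBFB_KO value reached a WT value.

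MRPS6 and MRPS16, both small subunit proteins, had 195 and 89.3 CPM and 120 and 168 CPM in WT free against 34.9 and 18.1 and 37.2 and 19.3 in CBFB_KO free. They fell by 2.42 and 2.35, as did MRPL37, a large subunit protein, by 2.42. MRPL58, the peptidyl-tRNA hydrolase of the large subunit, was at 20.7 and 13.2 CPM against 8.11 and 7.08 and fell by 1.16 (SE 0.39, adjusted p = 0.0352 by edgeR). MRPL36 and MRPL41 fell by 1.69 and 1.80. With GC and length trends of each library taken out of the fit, MRPL36, MRPL41, MRPL58 and MRPS18A had changes of 0.11, 0.34, 0.20 and 0.04 in the other direction, none of which passed the test. In the same fit MRPL12, MRPL10, MRPS12 and MRPS18B were at -0.92, -0.76, -0.71 and -0.47 and also lost their calls, with adjusted p of 0.0567, 0.0679, 0.0708 and 0.184 by edgeR. Of the decreases named here, all but MRPS12 and MRPS16 lost their calls without WT replicate 1 and without CBFB_KO replicate 2, and all lost them with the free libraries alone.

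Of the 3 MRPS18 paralogs, MRPS18A sits on the large subunit and the other two on the small one. MRPS18A was at 46.3 and 23.5 CPM in WT free and 15.2 and 6.37 in CBFB_KO free and fell by 1.68, and MRPS18B fell by 1.51. MRPS18C was at 6.92 and 12 CPM against 4.93 and 13.9, and its log2 change was -0.03 (SE 0.51). MRPS30, a large subunit protein despite its name, had a change of 0.28 (SE 0.45). MRPS36, now known as a subunit of the 2-oxoglutarate dehydrogenase complex, had a change of -0.18 (SE 0.56). With the GC trend taken out, MRPS18C, MRPS30 and MRPS36 were at -2.01, -1.81 and -2.09 and were called lower. They were also called lower with plain totals, at -1.98, -1.46 and -2.16, where 39.7% of all genes were lower. With the length trend taken out, MRPS18C and MRPS36 were at 1.0 and 0.86 and were not called. A difference among the paralogs was not tested.

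The 3 members that rose all have a bacterial counterpart. MRPL19 was at 3.53 and 1.74 CPM in WT free and at 21.0 and 30.0 in CBFB_KO free, a rise of 3.28 (SE 0.59, adjusted p = 0.0022 by edgeR). MRPS9 was at 1.46 and 0.411 CPM against 6.54 and 8.29 and rose by 2.99. MRPL3 was at 9.42 and 6.49 CPM against 23.0 and 33.8 and rose by 1.83, a call that was lost without WT replicate 2, without CBFB_KO replicate 2 and in the free libraries alone. The change of MRPL3 was 0.06 with plain totals and 0.70 with the GC trend taken out, neither of which passed the test, and MRPS9 lost its call with plain totals, at 1.28, and in the free libraries alone. In the free fraction the genotypes did not overlap for any of the 3, with CBFB_KO above WT as for 37.4% of all genes tested. In the poly fraction MRPL19 was at 7.78 and 11.7 CPM in WT and 9.11 and 9.74 in CBFB_KO.

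**Figure D2:**
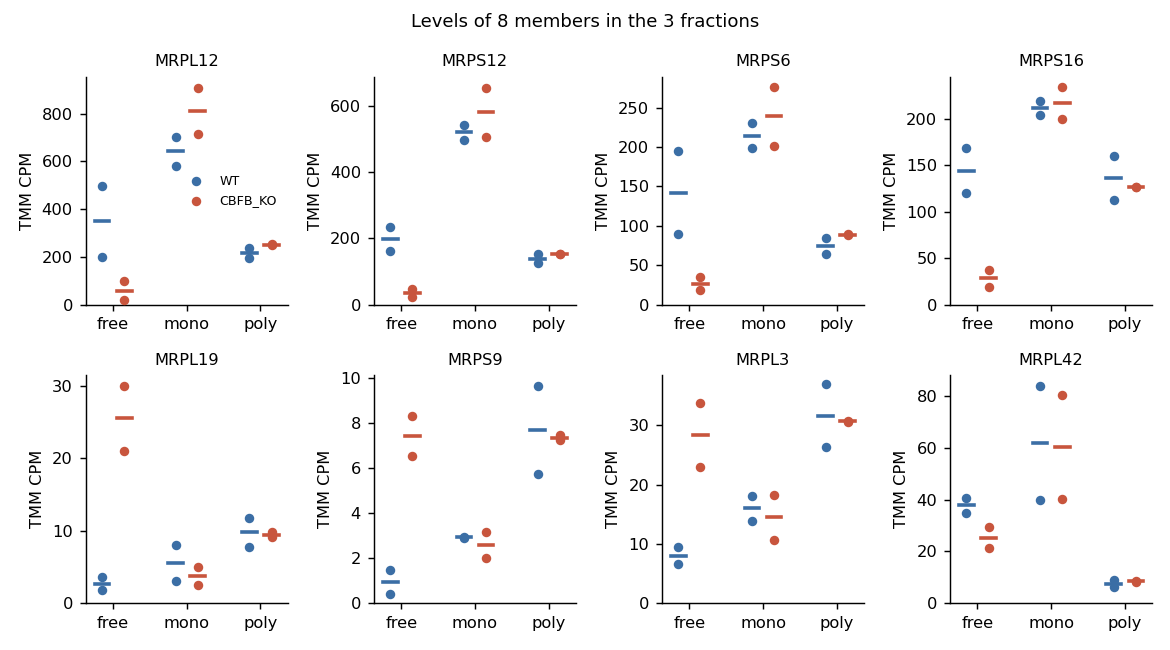
TMM-scaled CPM (y axis, from 0) of 8 members in the free, mono and poly fractions (x axis), with points for the 2 replicates and bars for their mean. MRPL12, MRPS12, MRPS6 and MRPS16 sit lower in CBFB_KO free than in WT free, MRPL19, MRPS9 and MRPL3 sit higher, and MRPL42 is low in poly in both genotypes.

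The change of a member moved with its base composition and level. Across the 76 members, the Spearman correlation of the log2 change in the free fraction was -0.73 with the GC content of the transcript. It was -0.65 with the WT poly level and 0.14 with length. Over all genes tested these were -0.42, -0.31 and 0.44. The members share the same libraries, depth and base composition trends. Their median effective length was 863, against 1686 for all genes tested. Members that fell had a median GC content of 54.3% (range 43.6% to 71.9%), and those not called one of 42.0%. With each library's GC trend taken out, an alternative chosen after seeing the data, 51 members were lower and 2 higher. Of all genes, 22.4% were lower and 20.3% higher in that fit. The median change was -1.45 against -0.16 for all genes, and 31 of the 51 were among the 43. With the length trend taken out, 26 were lower and 8 higher, with a median of -0.54. With both taken out, also chosen after seeing the data, 19 were lower and 4 higher, where 17.7% of all genes were lower and 17.5% higher. The median was -0.32 against -0.08 for all genes, and 12 of the 19 were among the 43. When the totals were used without TMM, 67 were lower and 1 higher, while the median of all genes moved to -1.57. In that fit 39.7% of all genes were lower and 7.87% higher. The count also rested on particular libraries. When only the free libraries entered the fit, 0 were lower, where 0.676% of all genes were, with a member median of -1.28. Most calls were lost without WT replicate 1 and without CBFB_KO replicate 2, with medians of -1.02 and -1.06. Fewer members were called lower with the CBFB_KO poly libraries as 1 sample, at a median of -1.31. In these 3 fits the share of all genes called lower dropped as well. Each value is a share of a bulk library, in which fewer cells with an mRNA and less of it per cell cannot be told apart.

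**Figure D3:**
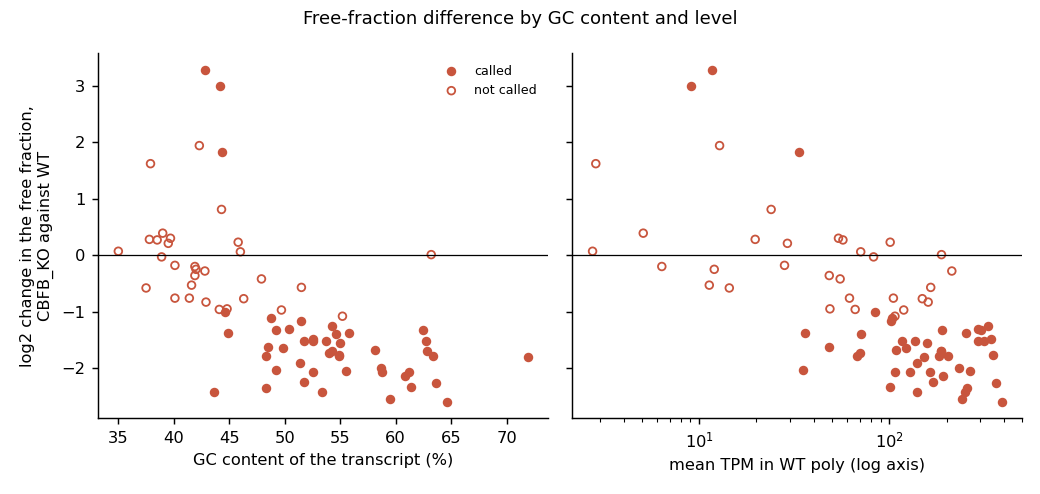
Log2 change of each member in the free fraction (y axis) against the GC content of its transcript in percent and its mean WT poly TPM on a log axis, filled where called. High-GC, high-level members lie lowest, with Spearman correlations of -0.73 and -0.65.

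Other genes of the pathway were counted in the free fraction as well. Of the 5 mitoribosome proteins under other names, 3 were lower. Mitochondrial translation factors had 4 of 16 lower and 5 higher, with a median of 0.51, and assembly factors had 11 of 25 lower and 2 higher. Nuclear OXPHOS subunits, which share mitochondria with the products of the ribosome, had 38 of 77 lower and 4 higher (median -1.09). Cytosolic ribosomal proteins had 36 of 80 lower and 0 higher (median -1.06). No test of the members against these lists was made.

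In the mono and poly fractions, no member passed the test between the genotypes. In mono, 0 members rose and 0 fell, where 0.0307% of all genes rose and 0.117% fell, and 0 members had an unadjusted p under 0.05 in edgeR and 0 were called by DESeq2. The median log2 change was 0.07, with a range of -0.68 to 0.70. In poly, 0 members rose and 0 fell, where 0.0246% of all genes rose and 0.166% fell. There were 0 unadjusted p under 0.05 in edgeR and 0 calls by DESeq2, and the changes ran from -0.50 to 0.47 around a median of 0.05. The fit over all 12 libraries shares its estimate of the spread across the fractions. With the poly libraries fitted alone, 5 members had an unadjusted p under 0.05 in edgeR and 0 were called. In that fit 0.424% of all genes rose and 0.758% fell. With the mono libraries fitted alone, 0 members had an unadjusted p under 0.05 in edgeR. The extremes in mono were MRPS31 at 0.70 (SE 0.73) and MRPL43 at 0.41 and, below 0, MRPL30 at -0.68 and MRPL19 at -0.57. In poly they were MRPL30 at 0.47 and MRPL1 at 0.42 and, below 0, MRPS30 at -0.50 and MRPL44 at -0.50.

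**Figure D4:**
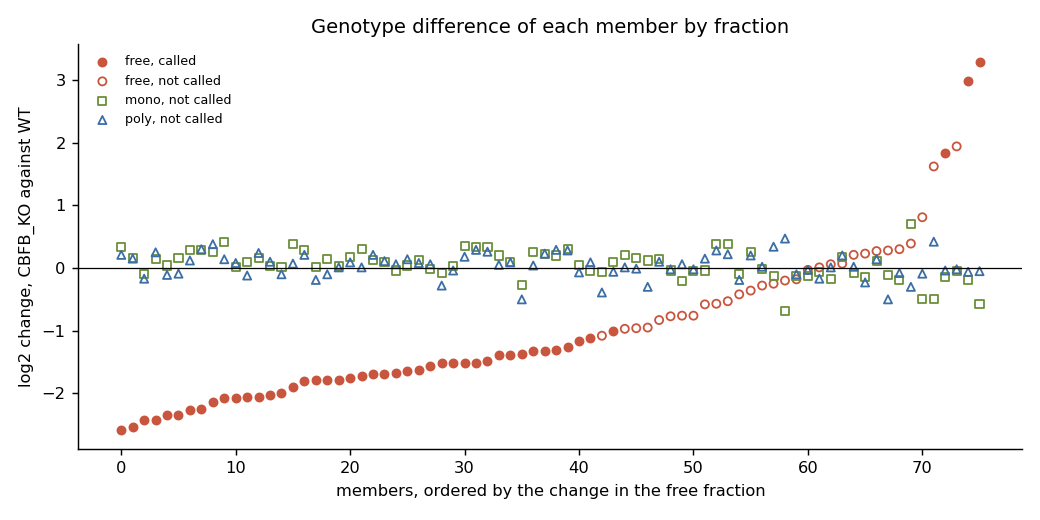
Log2 change, CBFB_KO against WT, of each member (ordered along the x axis by the free value) in the free, mono and poly fractions, filled where called. Mono and poly values stay between -0.68 and 0.70, while free values run from -2.59 to 3.28.

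Within WT, 17 members were higher in poly than in free and 1 was lower, where 14.0% of all genes were higher and 7.99% lower, with a median of 0.62 for the members and 0.08 for all genes. MRPS9 rose from 1.46 and 0.411 CPM in free to 5.70 and 9.63 in poly, a change of 3.04 (SE 0.59). MRPL15 rose by 2.48, from 13.3 and 9.36 CPM to 61.5 and 65.6, and MRPL39, MRPL3 and MRPS22 rose by 2.56, 1.99 and 1.89. MRPL42, a large subunit protein without a bacterial counterpart, went the other way, from 34.9 and 40.7 CPM in free to 6.21 and 8.79 in poly, and fell by 2.33 (SE 0.49, adjusted p = 0.00811 by edgeR). This call was lost without WT replicate 1, where the change was -2.19. Those of MRPL3 and MRPL39 were lost without WT replicate 1 and those of MRPL3 and MRPS22 without WT replicate 2. That of MRPL39 was also lost without either CBFB_KO replicate, with the CBFB_KO poly libraries as 1 sample and with the length trend taken out. Fewer members, and fewer of all genes, were called higher without either WT replicate and with the CBFB_KO poly libraries as 1 sample. The member medians were 0.78 without WT replicate 1, 0.59 without WT replicate 2 and 0.64 with the poly libraries as 1 sample.

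In CBFB_KO, 48 members were higher in poly than in free and 1 was lower, where 14.6% of all genes were higher and 16.7% lower, with a median of 1.92 against -0.12. The comparisons of WT and CBFB_KO free share libraries with the fraction differences, so these are values side by side and no independent evidence. MRPS34 rose by 3.24, from 32.3 and 9.71 CPM to 194 and 206. MRPL28, MRPL41, MRPL14 and MRPL16 rose by 3.08, 3.08, 3.07 and 3.02. MRPL42 fell by 1.61, from 21.2 and 29.4 CPM to 8.16 and 8.43, a call that was lost without either CBFB_KO replicate and with the CBFB_KO poly libraries as 1 sample. Its change was 0.25 with the GC trend taken out, and 0.70 with plain totals, under which the median of all genes was 2.05. Without CBFB_KO replicate 2 the member median was 1.76 against -0.11 for all genes, and MRPS34, MRPL28 and MRPL14 lost their calls. With the nearly alike CBFB_KO poly libraries as 1 sample it was 1.94 against -0.09. In both fits fewer members, and fewer of all genes, were called higher.

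The difference between these 2 steps was tested by the interaction. The poly to free ratio was higher in CBFB_KO for 15 members and lower for 3, where 4.1% of all genes were higher and 14.3% lower, with a median of 1.30 against -0.10. With the GC and length trends taken out, chosen after seeing the data, 10 were higher and 4 lower, where 8.65% and 11.5% of all genes were. The median in that fit was 0.16 against 0.05 for all genes. The largest were MRPS12 at 2.68 (SE 0.60), MRPS6 at 2.67, MRPL11 at 2.55, MRPL55 at 2.51 and MRPL14 at 2.28. MRPL11, which sits at the base of the stalk, had 314 and 152 CPM in WT free and 69.4 and 28.5 in CBFB_KO free, and 91.5 and 78.8 against 105 and 105 in poly. The ratio fell by 3.32 for MRPL19, by 3.05 for MRPS9 and by 1.88 for MRPL3, the members that rose in the free fraction. With plain totals, which moved the median of all genes to 1.54, 47 were higher and 0 lower, where 18.5% and 3.97% of all genes were. All or most of the 15 calls were lost with the CBFB_KO poly libraries as 1 sample, without either WT replicate and without CBFB_KO replicate 2. In these fits fewer of all genes were called higher as well. The member medians were 1.30 with the poly libraries as 1 sample, 1.13 without WT replicate 1, 1.49 without WT replicate 2 and 1.03 without CBFB_KO replicate 2.

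Relative to the mono fraction, the median member was lower in poly in both genotypes with TMM scaling, and higher with the length trend taken out. In WT, 4 were higher and 12 lower, where 11% of all genes were higher and 9.68% lower, and the median was -0.54. In CBFB_KO, 1 was higher and 10 were lower, where 8.2% and 8.66% of all genes were, and the median was -0.53. MRPL42 was at 39.7 and 84.2 CPM in WT mono and 6.21 and 8.79 in WT poly and fell by 3.05 (SE 0.51), and in CBFB_KO it fell by 2.86. MRPL11 fell by 2.54 and 2.52, MRPL20 by 2.17 and 2.22, MRPL51 by 2.14 and 2.13, and MRPS12 by 1.91 and 1.92 in WT and CBFB_KO. MRPL15 rose by 1.70 in WT and 1.61 in CBFB_KO. MRPS31, MRPS30 and MRPL44 rose by 3.06, 1.49 and 1.24 in WT. MRPS31 had only 17 and 22 counts in WT mono, the fewest of the members there. The call of MRPS30 was lost with DESeq2's size factors in edgeR, at 1.46, and with the length trend taken out, at 1.39. That of MRPL44 was lost with no filter on low counts, at 1.28. With the length trend taken out, the median turned to 0.30 in WT and 0.26 in CBFB_KO. In that fit 13 were higher and 6 lower in WT, where 8.5% and 5.83% of all genes were. In CBFB_KO 12 and 6 were, where 6.35% and 4.76% of all genes were. With totals in place of TMM the median was 0.34 and 0.42, below the medians of all genes at 0.81 and 0.82. Then 7 were higher and 1 lower in WT, where 17.0% and 1.66% of all genes were. In CBFB_KO 8 and 1 were, where 15.5% and 0.989% of all genes were. In WT, the member median was -0.75 without WT replicate 1 and -0.18 without WT replicate 2. In CBFB_KO it was -0.72 without CBFB_KO replicate 1, -0.28 without CBFB_KO replicate 2 and -0.52 with the CBFB_KO poly libraries as 1 sample. All or nearly all member calls were lost in these fits. Calls over all genes were lost in them too, so this loss is not particular to the members.

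The poly to mono ratio was compared between the genotypes in the same way. By edgeR's quasi-likelihood test, 0 members were higher and 0 lower, as were 0.0% and 0.0% of all genes, with 0 members at an unadjusted p under 0.05 and 0 called by DESeq2. The changes ran from -1.0 for MRPS31 and -0.42 for MRPS27 to 0.91 for MRPL1 and 1.15 for MRPL30, around a median of -0.02.

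Some members share sequence with other genes. In GENCODE release 29, 16 members overlap an exon of another gene on the same strand, among the named ones MRPL12, MRPL20, MRPL28, MRPL30, MRPL42, MRPS6, MRPS16 and MRPS24, and 29 overlap one on the opposite strand, among them MRPL11, MRPL19, MRPL37, MRPL51, MRPS9 and MRPS12. Whether counting used strand is not given in the sources used here, so these values are uncertain. The 71 pseudogenes named after members took at most 16 counts per library.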

How the data were processed

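The 12 libraries hold RNA from gradient fractions of both genotypes. The authors' processing notes name Trimmomatic, STAR, RSEM and hg19, without versions, and the labels name a TruSeq mRNA kit. The authors deposited RSEM expected counts, TPM and the effective length of each gene, 1 table per library. The model, on rounded expected counts, was run in R 4.3.3 with edgeR 4.0.16 and limma 3.58.1: TMM factors, filterByExpr on the 6 conditions (minimum count 10), a mean per condition over all 12 libraries, and the quasi-likelihood test with Benjamini-Hochberg adjustment over 16275 genes. The standard error is the size of the log2 change over the square root of F. CPM values use TMM-scaled library sizes. Alternatives were RLE and plain totals, no filter, DESeq2 1.42.0, a length offset (lowess span 0.3), the replicate block, each replicate of a genotype left out, the CBFB_KO poly pair as 1 sample, and single fractions. GC offsets were added after seeing the data. GC content was known for 96.1% of tested genes. The fits were tested on simulated data. Promoters are from RefSeq GRCh38.p14, and no coordinates were converted from hg19. Members and gene lists were chosen with earlier results of these data known. Named members were the 5 largest called changes in each direction of each comparison (2 where none was called), the 5 highest and 5 lowest WT poly levels, and 11 fixed for their roles. Python 3.11.15, pandas 2.3.3, numpy 2.4.6 and matplotlib 3.10.9 were used.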

Additional observations from a re-analysis of the deposited data

Results flagged for a closer look

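The poly to free ratio of several members differed between the genotypes in the test of the interaction. It was higher in CBFB_KO for 15 members and lower for 3. On the log2 scale the difference was 2.68 for MRPS12, 2.67 for MRPS6, 2.51 for MRPL55, 2.55 for MRPL11 and 2.28 for MRPL14, and -3.32 for MRPL19, -3.05 for MRPS9 and -1.88 for MRPL3. The CBFB_KO free libraries, with 71.56% and 87.22% of their counts on the mitochondrial genome, enter all of these values. The median member change was 1.30, and it was 1.55 without CBFB_KO replicate 1 and 1.03 without CBFB_KO replicate 2. It was 0.16 against 0.05 for all genes with the length and GC trends taken out. These calls depended on the replicates and the processing, as given above. The difference of the ratio is the change in poly less the change in free, whose member medians were 0.05 and -1.31. In poly 0 members were called, and in free 43 were lower and 3 higher. The ratio is therefore no evidence apart from the free-fraction difference.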

How the results depend on the processing

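Counts are of members called, higher and lower, and the share of all genes called changed with the setting as well. For CBFB_KO against WT in the free fraction (3 and 43), plain totals gave 1 and 67, the length offset 8 and 26, DESeq2 5 higher, the length and GC offset 19 lower, and the free libraries alone 1 and 0. For poly against free in WT (17 and 1), the length offset gave 33 and 2, the length and GC offset 40 and 3, the GC offset 5 lower, RLE and no filter 2 lower each, DESeq2 4 lower, and the CBFB_KO poly libraries as 1 sample 9 higher. For poly against mono in WT (4 and 12), plain totals gave 7 and 1, the length offset 13 and 6, the length and GC offset 19 higher, the GC offset 20 lower, DESeq2 22 lower, and the poly pair as 1 sample 2 and 5. For poly against free in CBFB_KO (48 and 1), plain totals gave 73 and 0, no filter, DESeq2 and the length and GC offset 2 lower each, the length offset 3 lower, and the GC offset and the poly pair as 1 sample 0 lower. For poly against mono in CBFB_KO (1 and 10), plain totals gave 8 and 1, DESeq2 3 and 24, the length offset 12 and 6, the GC offset 3 and 17, the length and GC offset 20 higher, and the poly pair as 1 sample 0 and 0. For the poly to free ratio (15 and 3), plain totals gave 47 and 0, DESeq2 35 higher, the length offset 7 higher, the GC offset 34 and 1, and the poly pair as 1 sample 0 and 0. The causes were not tested.

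With the libraries of 1 replicate number of 1 genotype left out, 1 library per fraction remains for that genotype. It is assumed to vary like the other groups, and the share of all genes called moved between these fits as well. The range was 2 to 4 higher and 2 to 39 lower for CBFB_KO against WT in free. In WT, poly against free had 4 to 14 higher and 0 to 1 lower. Poly against mono in WT had 0 to 2 higher and 0 to 8 lower. In CBFB_KO, poly against free had 4 to 49 higher and 0 to 2 lower. Poly against mono in CBFB_KO had 0 to 7 higher and 0 to 6 lower. The poly to free ratio had 0 to 21 higher and 0 to 2 lower. The counts of 0 in the mono, poly and poly to mono comparisons stayed at 0 under each alternative run.

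Of 64 named results, these turned direction. In the free comparison, with the length and GC offset, MRPL36 was at 0.11, MRPL41 at 0.34, MRPL58 at 0.20, MRPS18A at 0.04 and MRPS30 at -0.71. MRPS30 was at -1.81 with the GC offset, -1.46 with plain totals and -0.10 without WT replicate 2. MRPS18C was at 0.09 with RLE, 0.10 with DESeq2, 1.0 with the length offset, 0.06 in the free libraries alone, 0.37 without WT replicate 2 and 0.54 without CBFB_KO replicate 1. MRPS36 was at 0.86 with the length offset and 0.47 without CBFB_KO replicate 1. MRPL42 in poly against free of CBFB_KO was at 0.70 with plain totals and 0.25 with the GC offset. Over the replicates left out in turn, the range was -0.93 to 0.54 for MRPS18C, -0.10 to 0.68 for MRPS30 and -1.33 to 0.47 for MRPS36 in free, -0.66 to 1.42 for MRPS31, -2.7 to 0.14 for MRPL30 and -1.17 to 0.23 for MRPL19 in mono, -0.03 to 1.10 for MRPL1 in poly, and -1.73 to 0.37 for MRPS31 and -0.92 to 0.03 for MRPS27 in the poly to mono ratio.

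The replicate numbers were not taken to pair the samples, since the labels give no shared source. The differences between replicates 1 and 2 also correlated unevenly. Between WT and CBFB_KO this was 0.06 in free, 0.58 in mono and 0.08 in poly over all genes, and 0.40, 0.76 and 0.22 over the members. Within WT it was -0.24 for free with mono, 0.03 for free with poly and 0.42 for mono with poly over all genes. Within CBFB_KO these were 0.24, 0.05 and 0.04. Over the members they were 0.23, 0.21 and 0.52 in WT and 0.58, 0.1 and 0.32 in CBFB_KO. The replicate block fits 1 shift for both genotypes, so a pairing of fractions within each genotype was not fitted. With the replicate block the free comparison had 4 members higher and 43 lower, and the poly to free ratio 22 higher and 3 lower, and no named call was lost. Depth limits the CBFB_KO free libraries most, where the median member had 395 and 127 counts.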
